A study of Mus musculus with 6 samples.

Results

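The NRF2 antioxidant response genes examined here were *Nfe2l2*, *Keap1*, *Nqo1*, *Gclc*, *Gclm*, *Srxn1*, *Txnrd1*, *Hmox1*, *Osgin1* and *Abcc4*, chosen by symbol as named genes of the NRF2 pathway. Of these 10 genes, 9 had values among the 21528 genes listed in at least 1 liver library, and *Txnrd1* was not analysed here. Liver RNA came from 3 wild-type (WT) and 3 TRIM24 C52/55A knockin mice, all C57BL/6, 5 months old and given a high-fat diet (HFD, 60% fat) for 3 months. TRIM24 is a RING-type E3 ubiquitin ligase, and the knockin replaces a pair of cysteines of the RING domain by alanine in the endogenous gene, in every tissue. Per the methods of the study, knockin mice were homozygous and WT mice were littermates from heterozygous crosses, on a C57Bl/6J background. All mice were on the HFD, so no value on a regular diet stands beside these levels. The labels call the libraries replicates and do not say that each is a separate mouse, so the p-values measure the spread between these libraries.

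NRF2, encoded by *Nfe2l2*, is a transcription factor that pairs with small MAF proteins and binds antioxidant response elements near genes for glutathione synthesis, thioredoxin-dependent repair, NADPH supply, detoxification and iron storage. In unstressed cells KEAP1 holds NRF2 and presents it to a CUL3 ubiquitin ligase for degradation, and electrophiles or oxidants that modify KEAP1 let NRF2 accumulate. NRF2 is thus set largely at the level of its protein, which RNA sequencing does not measure, and the mRNA of its targets is the usual readout. The liver, which handles oxidants, drugs and heme, uses this pathway heavily.

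Promoter sequences are shown first for the members whose promoter window held the TPA response element TGACTCA, the core letters shared by AP-1 and many NRF2 sites, because these members moved in opposite directions. A window covered 250 bases before to 50 bases after a RefSeq start (GRCm38.p6). TGACTCA, read on either strand, stood in 5.20% of all 32851 windows. The longer TGACTCAGC, which contains it, stood in 0.454%. The looser antioxidant response core TGACNNNGC, which TGACTCAGC also matches, stood in 12.4%. Of the 10 members, 8 had a window, and *Gclc* and *Hmox1* did not. A gene with several RefSeq starts has several windows, so the 8 members had 11. TGACTCA was in the windows of *Srxn1* and *Osgin1*, TGACTCAGC in that of none of the 8, and TGACNNNGC in 6 windows of 5 members (*Nfe2l2*, *Gclm*, *Srxn1*, *Txnrd1* and *Abcc4*). Of 56 further pathway genes listed, 48 had 70 windows between them, 7 windows with TGACTCA, 3 with TGACTCAGC and 20 with TGACNNNGC. Windows of 1 gene can overlap, and these shares were not tested. Each sequence runs 5′ to 3′ on the strand of its gene, with TGACTCA or its reverse complement TGAGTCA in capitals. *Srxn1* (chr2:152105274-152105573, plus strand) held the letters 102 and 45 bases before its start, and *Osgin1* (chr8:119436897-119437196, plus strand) 97 bases before the RefSeq start of its window. That start lies inside the annotated *Osgin1* gene, 3023 bases after the gene's first base.
Srxn1: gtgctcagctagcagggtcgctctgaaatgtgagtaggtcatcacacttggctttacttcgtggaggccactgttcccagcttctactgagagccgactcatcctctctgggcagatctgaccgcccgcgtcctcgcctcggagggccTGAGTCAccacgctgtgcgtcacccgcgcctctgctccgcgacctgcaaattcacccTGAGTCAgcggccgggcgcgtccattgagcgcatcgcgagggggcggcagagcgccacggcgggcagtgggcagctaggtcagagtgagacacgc
Osgin1: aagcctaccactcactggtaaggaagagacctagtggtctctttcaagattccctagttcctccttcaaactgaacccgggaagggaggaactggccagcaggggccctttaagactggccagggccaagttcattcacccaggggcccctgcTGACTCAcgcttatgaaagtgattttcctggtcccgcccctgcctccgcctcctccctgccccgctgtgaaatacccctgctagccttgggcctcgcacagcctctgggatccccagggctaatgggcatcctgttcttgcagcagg
For comparison, the same window is shown for the further pathway gene that fell most among those whose window held TGACTCA. It is also shown for *Gstp1*, the only one of them that rose. The letters lay 6 bases before the start of *Me1* (chr9:86695865-86696164, minus strand) and 74 bases before that of *Gstp1* (chr19:4037863-4038162, minus strand).
Me1: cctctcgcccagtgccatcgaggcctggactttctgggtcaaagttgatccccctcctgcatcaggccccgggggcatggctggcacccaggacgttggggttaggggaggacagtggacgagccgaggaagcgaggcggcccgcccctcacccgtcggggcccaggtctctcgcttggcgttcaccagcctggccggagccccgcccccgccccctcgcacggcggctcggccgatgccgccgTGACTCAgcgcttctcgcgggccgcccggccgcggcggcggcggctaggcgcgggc
Gstp1: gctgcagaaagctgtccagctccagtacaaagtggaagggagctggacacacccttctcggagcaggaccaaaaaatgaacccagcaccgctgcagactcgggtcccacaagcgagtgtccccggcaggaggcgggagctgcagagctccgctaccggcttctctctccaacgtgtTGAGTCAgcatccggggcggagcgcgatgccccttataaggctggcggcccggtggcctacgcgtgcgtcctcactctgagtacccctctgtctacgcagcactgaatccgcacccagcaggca
*Srxn1* and *Me1* fell and *Osgin1* and *Gstp1* rose in the TRIM24 C52/55A liver, so the letters stood in windows of genes that moved both ways. Of the 6 further pathway genes with TGACTCA, *Gstp1* alone had a log2 fold change above 0 (2.20, on the scale defined below). The others were *Me1* (-1.39), *Glrx* (-0.88), *Htatip2* (-0.62), *Prdx1* (-0.31) and *Aox1* (-0.10), with *Prdx1* and *Aox1* not passing the test. TGACTCAGC was in windows of *Me1*, *Htatip2* and *Prdx1*, and not of *Glrx*, *Gstp1*, *Aox1*, *Srxn1* or *Osgin1*. A match of letters is not a measured binding site.

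Levels are FPKM, the fragments of a gene scaled to transcript length and to the mapped fragments of a library, as deposited, so that levels of different genes can be set side by side per length. Differences between genotypes are log2 fold changes of FPKM + 1, TRIM24 C52/55A over WT, tested with limma in the 12225 genes whose mean reached 0.5 FPKM, with Benjamini-Hochberg adjustment over all of them. This scale understates the change of genes of low FPKM. Over all genes 944 had an adjusted p-value under 0.05, or 7.72%. They comprised 744 genes lower in the TRIM24 C52/55A liver (6.09%) and 200 higher (1.64%). The median log2 fold change of all genes tested was -0.08, and the FPKM of a library summed to 644619 to 648221 in WT and to 673244 to 676791 in TRIM24 C52/55A, so each difference also depends on how libraries are set against each other. The split of higher and lower genes was 249 and 411 with median-of-ratios scaling, 255 and 378 with quantile normalization and 197 and 1358 with TPM. *Trim24* itself had 5.54, 4.85 and 5.96 FPKM in WT and 6.15, 4.31 and 8.46 FPKM in knockin libraries, and since the knockin changes codons only, its level does not check the genotype.

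All 9 members with values passed the filter on low values, and the members were chosen with earlier results of these data known. Among them *Nqo1*, *Gclc* and *Srxn1* fell and *Osgin1* rose in the TRIM24 C52/55A liver, 3 lower and 1 higher of 9 against 6.09% lower and 1.64% higher of all genes. On the log2 scale the change was below 0 in 8 of the 9, against 65.5% of all genes tested, and its median was -0.29 against -0.08. Every TRIM24 C52/55A library was below every WT library for 6 members, where 22.5% of all genes had groups apart in that direction. It was above every WT library for 1 member, where the share of all genes was 6.31%. An exact permutation test of FPKM with 3 libraries per group cannot give a two-sided p below 0.1, and the 7 members with groups apart reached that value.

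**Figure D1:**
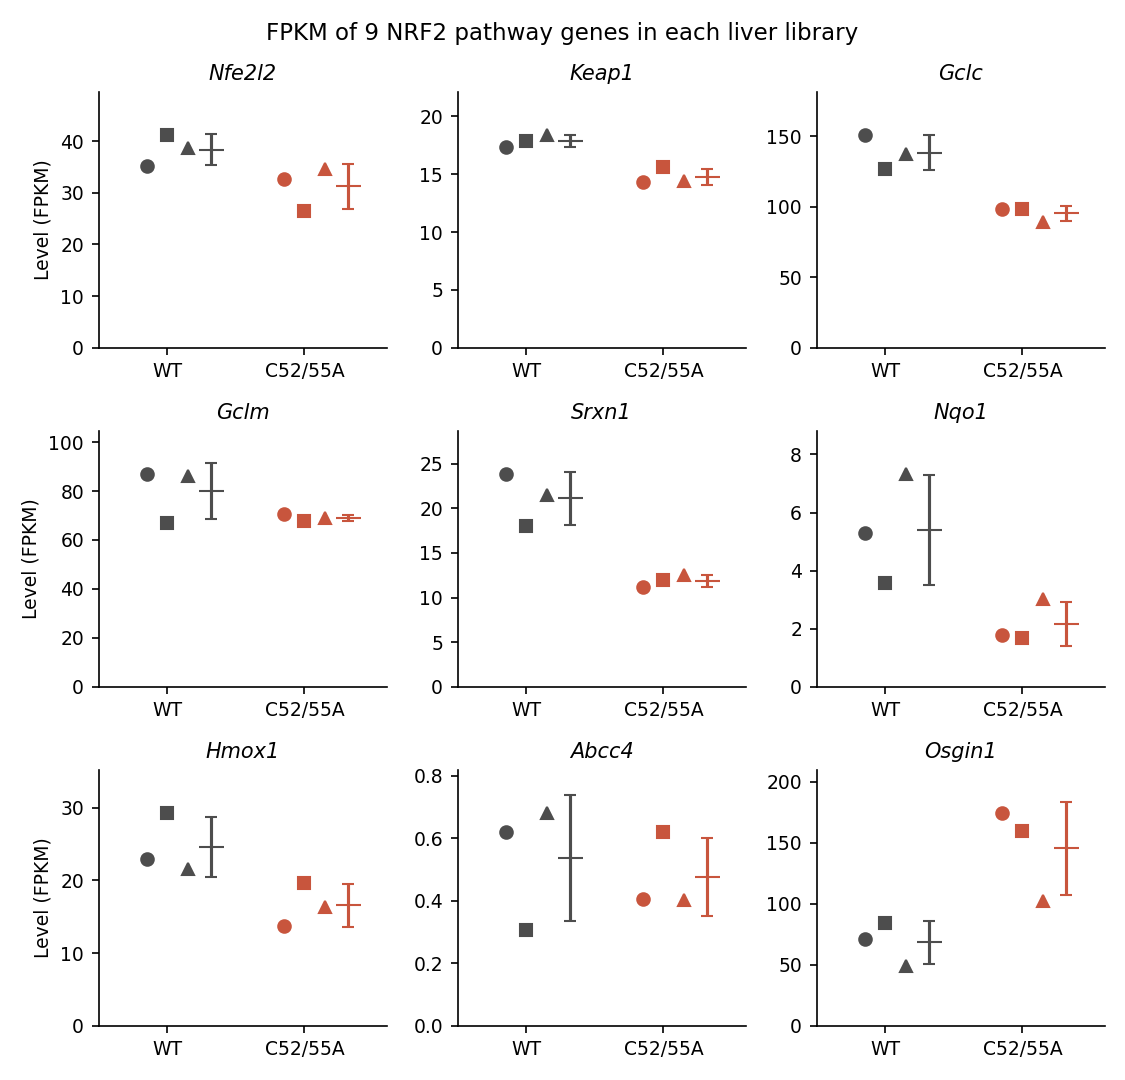
FPKM of the 9 members in each library (circle, square and triangle for replicates 1, 2 and 3), with the mean and SD of the 3 libraries of a group beside the points. The groups do not overlap in *Nfe2l2*, *Keap1*, *Gclc*, *Srxn1*, *Nqo1*, *Hmox1* and *Osgin1*, with the TRIM24 C52/55A libraries higher in *Osgin1* and lower in the other 6.

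The levels in WT ran over a wide range, from *Gclc* at 138 ± 12.4 FPKM (SD, n = 3) to *Abcc4* at 0.536 ± 0.202 FPKM (SD, n = 3). Below *Gclc*, whose lowest WT library (126 FPKM) was above the highest of any other member, came *Gclm* and *Osgin1*, whose WT libraries overlapped. *Nfe2l2* followed with a range of its own. *Hmox1* overlapped *Srxn1*, and *Srxn1* overlapped *Keap1*, so these neighbours did not differ beyond their spread. *Nqo1* and *Abcc4* closed the order. In the TRIM24 C52/55A liver *Osgin1* stood first, with its lowest library (102 FPKM) above the highest of *Gclc* (98.6 FPKM). *Srxn1* then stood below *Keap1*, its highest library at 12.5 FPKM against 14.4 FPKM for the lowest of *Keap1*.

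*Nfe2l2*, the gene of NRF2 itself (chr2:75675513-75704641, minus strand, GRCm38), had 35.2, 41.2 and 38.6 FPKM in the WT libraries (replicates 1, 2 and 3, the order kept throughout) and 32.7, 26.4 and 34.6 FPKM in knockin libraries. The highest TRIM24 C52/55A library lay just under the lowest WT library. The fitted log2 fold change was -0.29 (SE 0.11, 95% interval -0.56 to -0.03) and did not pass the adjustment (limma, adjusted p = 0.166). It was -0.18 without TRIM24 C52/55A replicate 2, -0.19 with median-of-ratios scaling and -0.15 with quantile normalization.

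*Keap1*, the sensor that directs NRF2 to degradation (chr9:21225371-21239361 in the files, 21229730-21239361 in GENCODE, minus strand), had 17.3, 17.9 and 18.4 FPKM in WT and 14.4, 15.6 and 14.4 FPKM in knockin libraries. All 3 knockin libraries were lower, by a small margin. Its log2 fold change was -0.26 (SE 0.08, 95% interval -0.44 to -0.08, limma, adjusted p = 0.0880; -0.16 with median-of-ratios scaling and -0.13 with quantile normalization), and the files' interval begins where GENCODE starts *Gm16754* (chr9:21225371-21233046, plus strand), an antisense gene that overlaps *Keap1*. Whether the counting used strand is not given in the sources used here, and the part of *Gm16754* in the *Keap1* values was not tested. Transcripts of *Nfe2l2* and *Keap1* were thus both slightly lower in the knockin libraries without a called change, and in the same library *Nfe2l2* stood at 2.03, 2.31 and 2.09 times *Keap1* in WT and 2.28, 1.69 and 2.41 times in TRIM24 C52/55A (exact permutation test of the ratio, two-sided p = 0.9).

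Among the glutathione genes, *Gclc* encodes the catalytic subunit of glutamate-cysteine ligase, the rate-limiting enzyme of glutathione synthesis (chr9:77754535-77794485, plus strand). It had 151, 126 and 137 FPKM in WT and 98.0, 98.6 and 88.8 FPKM in knockin libraries. The groups were well apart, with the knockin mean at 68.8% of WT. The log2 fold change was -0.53 (SE 0.09, 95% interval -0.74 to -0.33, limma, adjusted p = 0.0132). The adjusted p rose to 0.0550 without WT replicate 1, to 0.0535 without WT replicate 3 and to 0.0601 with quantile normalization.

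*Gclm*, the modifier subunit that makes the ligase more efficient, had 87.1, 67.0 and 86.1 FPKM in WT and 70.5, 67.7 and 68.8 FPKM in knockin libraries. WT replicate 2 lay below all knockin libraries, so the groups overlapped. On the log2 scale the change was -0.20 (SE 0.11, 95% interval -0.45 to 0.05, limma, adjusted p = 0.314). Without WT replicate 2 it was -0.32 (adjusted p = 0.0826), with median-of-ratios scaling -0.10 and with quantile normalization -0.05. The files give *Gclm* the interval chr3:122245557-122530191, 285 kb long, where GENCODE ends the gene at 122270732 after 25.2 kb, and the longer interval takes in other genes. *Gm17494* overlaps *Gclm* on the other strand. Within a library *Gclc* stood at 1.73, 1.89 and 1.59 times *Gclm* in WT and at 1.39, 1.46 and 1.29 times in TRIM24 C52/55A, so the catalytic subunit was lower relative to the modifier in each knockin library.

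*Srxn1*, sulfiredoxin, restores peroxiredoxins that peroxide has over-oxidised (chr2:152105516-152111376, plus strand). It had 23.9, 18.0 and 21.6 FPKM in WT and 11.1, 12 and 12.5 FPKM in knockin libraries. The knockin libraries lay close together and all far below WT, at 56.2% of the WT mean. The fitted log2 fold change was -0.77 (SE 0.11, 95% interval -1.03 to -0.52, limma, adjusted p = 0.00774). It was the one member called under each of 15 alternative settings, with adjusted p between 0.00525 and 0.0414. Its promoter window is the first sequence shown above.

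*Nqo1*, the NAD(P)H quinone reductase often used as the reference target of NRF2 (chr8:107388225-107403206, minus strand), was a minor transcript of this liver. It had 5.30, 3.56 and 7.34 FPKM in WT and 1.77, 1.69 and 3.02 FPKM in knockin libraries. WT values spread over a wide range, yet the lowest stayed above the highest knockin value, and the knockin mean was 39.9% of WT. Its log2 fold change was -1.002 (SE 0.24, 95% interval -1.54 to -0.46, limma, adjusted p = 0.0395). Each library held an estimated 28.2 to 123 fragments per kilobase for it. The call was lost without any one of 4 libraries, with adjusted p of 0.114 without WT replicate 1, 0.124 without WT replicate 3, 0.144 without TRIM24 C52/55A replicate 1 and 0.0765 without TRIM24 C52/55A replicate 2, and with median-of-ratios scaling (0.0634), quantile normalization (0.0592) or no filter (0.119).

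*Hmox1*, heme oxygenase 1, opens the heme ring and frees its iron (chr8:75093621-75100589, plus strand). It had 23.0, 29.3 and 21.6 FPKM in WT and 13.8, 19.6 and 16.3 FPKM in knockin libraries. The groups did not overlap, with WT replicate 2 and TRIM24 C52/55A replicate 2 the highest of their groups. The log2 fold change of -0.55 (SE 0.15, 95% interval -0.89 to -0.20) missed the threshold (limma, adjusted p = 0.0662), and it passed with TPM (0.0347) and without TRIM24 C52/55A replicate 2 (0.0322). Macrophages that recycle red cells are rich in *Hmox1*. All 11 Kupffer cell and macrophage markers had log2 fold changes below 0, with a median of -0.29 and no call by limma (2 had an unadjusted p under 0.05, as did 23.6% of all genes), and their FPKM summed to 267 to 335 in WT and 218 to 317 in knockin libraries, highest in replicate 2 of each group. Without TRIM24 C52/55A replicate 2, the setting in which *Hmox1* was called, 5 of these 11 markers were called lower as well and their median was -0.49, where 8.52% of all genes were called lower and the median of all genes was -0.10. The 4 hemoglobin genes summed to 1747, 616 and 886 FPKM in WT and 545, 462 and 643 FPKM in knockin libraries. The part of either in the *Hmox1* values was not tested, and in whole liver fewer cells of a type and less RNA per cell cannot be told apart.

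*Abcc4*, an exporter of conjugates and bile acids that liver makes little of at rest (chr14:118482692-118706219, minus strand), was near the limit of the data. It had 0.620, 0.305 and 0.681 FPKM in WT and 0.405, 0.618 and 0.401 FPKM in knockin libraries. The groups overlapped fully, at an estimated 5.10 to 11.4 fragments per kilobase. The log2 fold change was -0.05 (SE 0.13, 95% interval -0.36 to 0.25, limma, adjusted p = 0.857), smaller than its SE. A difference in either direction within that interval could not be told from none. Its mean over all libraries, 0.505 FPKM, lay just above the filter of 0.5 FPKM.

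*Osgin1*, a growth inhibitor induced by oxidative stress, moved against the rest (chr8:119434124-119446256, plus strand). It had 71.2, 84.6 and 49.2 FPKM in WT and 175, 160 and 102 FPKM in knockin libraries. Replicate 3 was the lowest of each group, and even so every knockin library was above every WT library, at 2.13 times the WT mean. On the log2 scale the change was 1.08 (SE 0.24, 95% interval 0.53 to 1.62, limma, adjusted p = 0.0331). The adjusted p was 0.0863 without WT replicate 1, 0.101 without WT replicate 3, 0.124 without TRIM24 C52/55A replicate 1, 0.0672 without TRIM24 C52/55A replicate 2, 0.0607 with robust moderation of the variances and 0.107 with no filter. The related *Osgin2* did not pass the test (limma, adjusted p = 0.759).

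**Figure D2:**
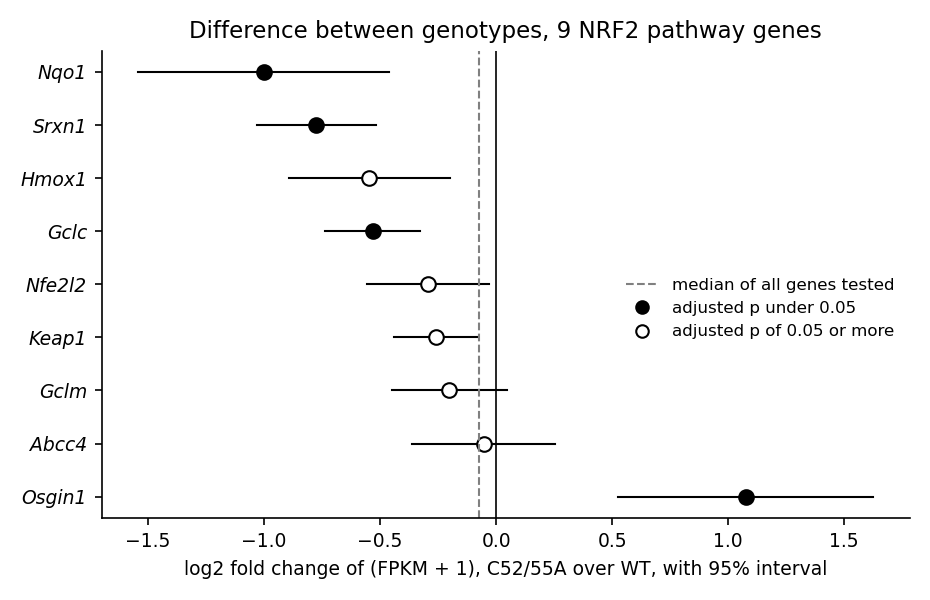
Log2 fold change of FPKM + 1, TRIM24 C52/55A over WT, with its 95% interval, for the 9 members. Filled points had an adjusted p under 0.05, and the dashed line marks the median of all genes tested, -0.08. *Osgin1* stands at 1.08 on the right, and the other 8 members lie between -1.002 and -0.05.

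Ratios of 2 members within a library do not change when all its values are divided by 1 factor, as with TPM or median-of-ratios scaling, while quantile normalization does change them. Of 8 ratios computed, all chosen after the values were seen, 5 had groups apart (two-sided p = 0.1 by exact permutation, the lowest 3 against 3 allows, and 0.16 after Benjamini-Hochberg adjustment over the 8). *Srxn1* stood at 1.38, 1.01 and 1.17 times *Keap1* in WT and at 0.775, 0.769 and 0.870 times in knockin libraries. *Osgin1* stood at 2.98, 4.71 and 2.28 times *Srxn1* in WT and at 15.7, 13.3 and 8.14 times in knockin libraries. The ratios of *Nqo1* to *Keap1* (0.200 to 0.398 in WT, 0.108 to 0.210 in knockin) and of *Hmox1* to *Keap1* (1.17 to 1.64 and 0.957 to 1.26) overlapped between the groups (exact permutation test, p = 0.2 each). Which of a pair moved is not given by a ratio.

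**Figure D3:**
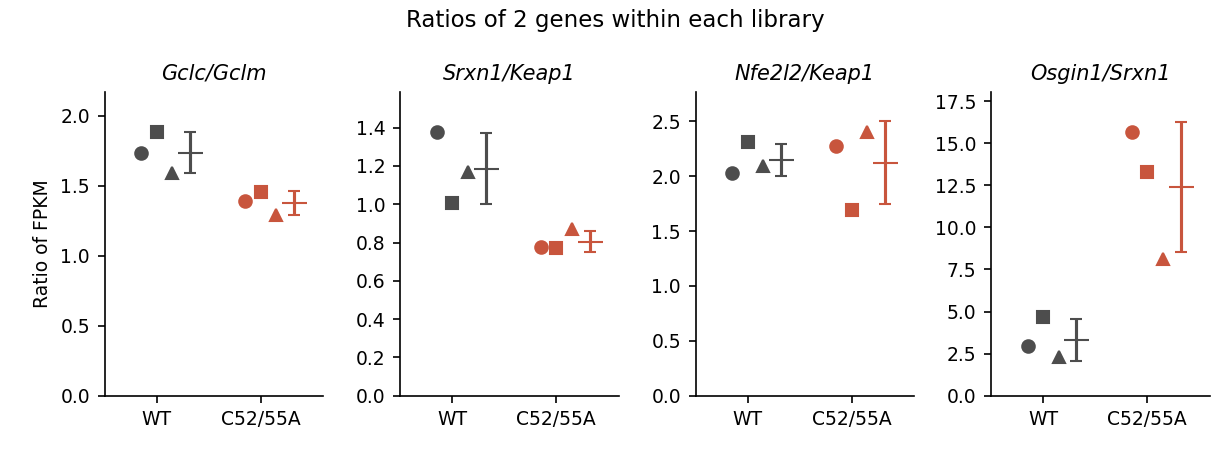
Ratio of the FPKM of 2 genes within each library, on axes that start at 0, with the mean and SD of the 3 libraries of a group. The groups are apart for *Gclc*/*Gclm*, *Srxn1*/*Keap1* and *Osgin1*/*Srxn1*, and overlap for *Nfe2l2*/*Keap1*.

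The direction of all 9 members held under the 3 other scalings, while the size and the calls moved. With median-of-ratios scaling the log2 fold change was -0.92 for *Nqo1*, -0.68 for *Srxn1*, -0.43 for *Gclc* and 1.18 for *Osgin1*, and the last 3 were called. Quantile normalization left *Srxn1* at -0.66 and *Osgin1* at 1.23 as the called members. TPM called 6 members, adding *Hmox1* at -0.62 and *Keap1* at -0.32. Of all genes 3.36% were called lower and 2.04% higher with median-of-ratios scaling. These shares were 3.09% and 2.09% with quantile normalization and 11.1% and 1.61% with TPM. The median of the members stayed 0.16 to 0.22 below that of all genes in every scaling, at -0.15 against 0.01 with quantile normalization and -0.36 against -0.14 with TPM.

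**Figure D4:**
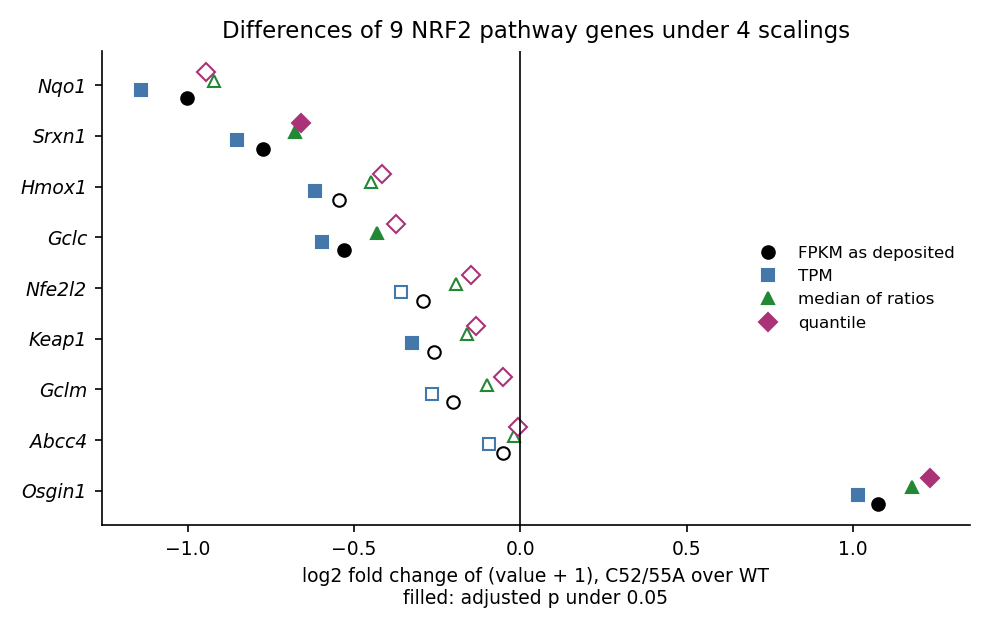
Log2 fold change of each member, TRIM24 C52/55A over WT, with FPKM as deposited and under 3 other scalings of the libraries. Filled symbols had an adjusted p under 0.05; *Srxn1* and *Osgin1* are filled in all 4, and no member crosses 0.

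The wider pathway was read from 56 further genes, of which 55 had values, *Gpx2* was not analysed here, and 53 passed the filter. They were listed with earlier results of these data known, so setting their counts beside all genes is a description, not a test. Of these 53, 19 fell and 1 rose, where 6.09% of all genes were called lower and 1.64% higher. The log2 fold change was below 0 in 47, against 65.5% of all genes, with a median of -0.29. The groups were apart with the knockin lower for 31 and higher for 1, where the shares of all genes were 22.5% and 6.31%. With median-of-ratios scaling 10 fell and 1 rose with 41 below 0, where 3.36% of all genes were called lower and 48.7% were below 0. With quantile normalization 11 fell and 1 rose with 39 below 0, where the shares of all genes were 3.09% and 47.7%. Without TRIM24 C52/55A replicate 1 the count of called genes dropped to 6, without WT replicates 1, 2 and 3 to 7, 11 and 9, and without a filter on low values to 7.

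Among 12 partners and regulators of NRF2, 3 fell and none rose, and 1 was called with median-of-ratios scaling or quantile normalization. Of all genes 6.09% were called lower with FPKM as deposited, 3.36% with median-of-ratios scaling and 3.09% with quantile normalization. *Sqstm1* was called in 12 of 15 alternatives, *Nfe2l1* and *Mafk* in 6 each. *Sqstm1*, the autophagy receptor p62 that can bind KEAP1, fell from 251 ± 12.3 to 184 ± 10.04 FPKM (SD, n = 3 each, log2 fold change -0.44, limma, adjusted p = 0.0143). *Nfe2l1*, the related factor NRF1, fell from 47.3 ± 4.83 to 34.1 ± 2.77 FPKM (log2 fold change -0.46, limma, adjusted p = 0.0311). *Mafk*, a small MAF partner, fell from 8.24 ± 0.956 to 5.48 ± 0.728 FPKM (log2 fold change -0.51, limma, adjusted p = 0.0420). The files give *Sqstm1* an interval of 36.4 kb and *Mafk* one of 35.4 kb, where GENCODE has 11.5 kb and 11.1 kb. What this adds to their values was not tested. The other small MAFs did not pass, with log2 fold changes of -0.36 for *Maff* (adjusted p = 0.210) and -0.17 for *Mafg* (adjusted p = 0.444). Nor did *Bach1*, a repressor that competes for the same sites, at 0.23 (adjusted p = 0.403), or *Cul3*, the scaffold of the KEAP1 ligase, at -0.02 (adjusted p = 0.929).

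Of 9 further glutathione and thioredoxin genes tested, all had log2 fold changes below 0 and 3 fell, against 65.5% and 6.09% of all genes. With median-of-ratios scaling or quantile normalization 7 were below 0 and 1 was called. Of all genes 48.7% or 47.7% were then below 0 and 3.36% or 3.09% were called lower. With TPM all 9 were below 0 and 6 were called lower, where the shares of all genes were 74.2% and 11.1%. *Glrx*, glutaredoxin, had 27.8, 26.4 and 28.9 FPKM in WT and 13.0, 16.1 and 14.8 FPKM in knockin libraries. The groups were far apart relative to their spread (log2 fold change -0.88, SE 0.09, limma, adjusted p = 0.00237). *Txn1*, thioredoxin, fell by 0.42 (adjusted p = 0.0417) and *Slc3a2*, a heavy chain of amino acid transporters, by 0.37 on the log2 scale (adjusted p = 0.0350). Each of this pair was called in 5 of 15 alternatives and lost its call without any one library other than TRIM24 C52/55A replicate 2, with adjusted p of 0.0851 to 0.147 for *Txn1* and 0.0892 to 0.138 for *Slc3a2*. The most abundant, *Prdx1* and *Prdx6*, peroxiredoxins that remove peroxide, went from 530 ± 13.6 to 428 ± 31.4 FPKM and from 306 ± 26.3 to 231 ± 27.0 FPKM and just missed the threshold (adjusted p = 0.0522 and 0.0530, limma). *Slc7a11*, the cystine transporter often used as an NRF2 target, was listed in 3 of the 6 libraries, at 0.186 FPKM or less, and was not tested.

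All 6 genes of NADPH supply had log2 fold changes below 0 under each scaling, and 3 fell, of which 1 was called with median-of-ratios scaling or quantile normalization. Of all genes 65.5% were below 0 with FPKM as deposited, 74.2% with TPM, 48.7% with median-of-ratios scaling and 47.7% with quantile normalization. In the same order 6.09%, 11.1%, 3.36% and 3.09% of all genes were called lower. *Me1* was called in all 15 alternatives, *Pgd* in 8 and *Tkt* in 5. *Me1*, malic enzyme, had 204, 136 and 137 FPKM in WT and 55.4, 56.0 and 65.8 FPKM in knockin libraries. Every WT library was more than 2 times the highest knockin library (log2 fold change -1.39, SE 0.16, limma, adjusted p = 0.00304). *Me1* also serves fatty acid synthesis, and its promoter window is among those shown above. *Pgd* and *Tkt*, of the pentose phosphate pathway, fell by 0.64 (adjusted p = 0.0265) and 0.49 (adjusted p = 0.0457) on the log2 scale. *Idh1* went from 201 ± 9.07 to 168 ± 16.6 FPKM (adjusted p = 0.130), and *Taldo1* from 96.0 ± 8.34 to 84.0 ± 4.22 FPKM (adjusted p = 0.240, limma).

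The 20 genes of conjugation, reduction and export held the largest changes of the pathway in both directions, 8 that fell and 1 that rose, with 18 log2 fold changes below 0. Median-of-ratios scaling left 5 that fell and 15 below 0, quantile normalization 6 and 14, and TPM 10 and 18. Of all genes 3.36%, 3.09% and 11.1% were called lower in these settings and 48.7%, 47.7% and 74.2% were below 0. With FPKM as deposited the shares were 6.09% and 65.5%. *Gsta1* fell by 1.68 (adjusted p = 0.0227), *Gsta2* by 0.99 (0.0391), *Gsta3* by 0.54 (0.0195) and *Gstm1* by 0.50 (0.0438) on the log2 scale (limma). These glutathione S-transferases belong to families of similar copies, between which the quantification could split reads, so the single values are uncertain. *Gsta1* and *Gsta2* lie on chr9 and *Gstm1* on chr3 near such copies, while *Gsta3* lies apart from them on chr1. *Gsta1* and *Gsta3* were called in 10 of 15 alternatives and *Gsta2* and *Gstm1* in 5. *Gsta1* lost its call without any one library among the 3 of WT and TRIM24 C52/55A replicate 1, with adjusted p of 0.0526 to 0.0917. *Abcc3*, a basolateral exporter of conjugates, had 79.9, 63.2 and 78.3 FPKM in WT and 26.1, 34.9 and 31.3 FPKM in knockin libraries. It fell clear of the WT range (log2 fold change -1.24, SE 0.13, limma, adjusted p = 0.00213), unlike its relative *Abcc4* described above, although the difference between the pair was not tested. *Cbr1*, carbonyl reductase, fell by 0.81 (adjusted p = 0.0112), *Htatip2* by 0.62 (0.0183) and *Mgst1*, the microsomal glutathione transferase and at 3462 ± 125 FPKM the most abundant in WT, by 0.58 (0.00853). *Htatip2* was called in 11 of the 15 alternatives and *Cbr1* and *Mgst1* in 14.

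*Gstp1*, the pi-class transferase, rose, and it did so in every knockin library. It had 941, 865 and 869 FPKM in WT and 4248, 4345 and 3760 FPKM in knockin libraries, 4.62 times the WT mean (log2 fold change 2.20, SE 0.09, limma, adjusted p = 1.57e-05). Its neighbour *Gstp2*, a close copy, had a log2 fold change of 2.17 and *Gstp3* one of 0.13 (adjusted p = 0.778, limma). Because of the copies, how much of the rise belongs to *Gstp1* or *Gstp2* is uncertain. *Gstp1* and *Osgin1* were the only called genes of the 62 members and further pathway genes tested that were higher in the knockin.

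Among 6 iron and heme genes both ferritin subunits, which store the iron that heme oxygenase frees, fell. Of all genes 6.09% were called lower. *Ftl1* had 3772, 3500 and 3995 FPKM in WT and 2376, 2171 and 2708 FPKM in knockin libraries (log2 fold change -0.64, SE 0.11, limma, adjusted p = 0.0127). *Fth1* had 1923, 1844 and 2116 FPKM in WT and 1204, 1186 and 1370 FPKM in knockin libraries (log2 fold change -0.65, SE 0.09, limma, adjusted p = 0.00767). The groups were apart for either subunit, and the knockin mean was 64.4% of WT for *Ftl1* and 63.9% for *Fth1*. Ferritin is also under strong control by iron itself after transcription. *Blvrb*, biliverdin reductase B, had 83.2 ± 12.2 and 76.3 ± 3.25 FPKM (adjusted p = 0.579, limma).

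**Figure D5:**
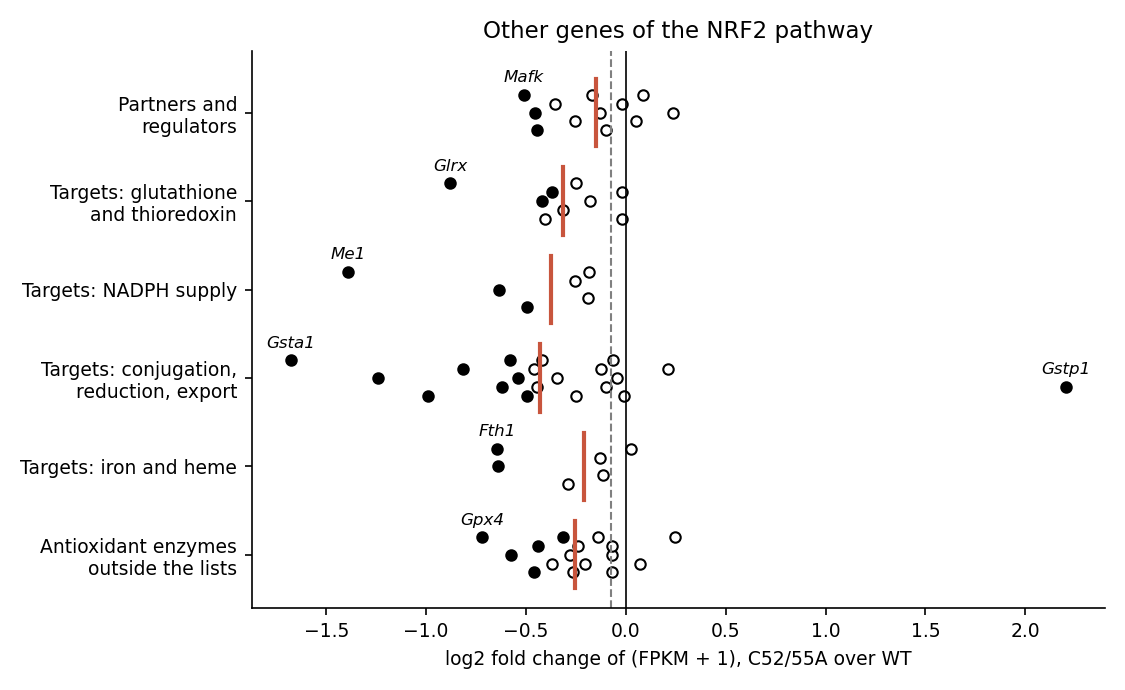
Log2 fold change of FPKM + 1, TRIM24 C52/55A over WT, of the further pathway genes and of antioxidant enzymes outside the pathway lists, 1 point per gene. Filled points had an adjusted p under 0.05, the vertical bar is the median of a list, the dashed line the median of all genes (-0.08), and the gene furthest from 0 among those called is named, with *Gstp1* at 2.20 on the right.

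Antioxidant enzymes that are not usually counted as NRF2 targets, also listed with earlier results known, were read beside these lists. Of 16 tested, 5 fell and 14 had log2 fold changes below 0 (11 with median-of-ratios scaling, 13 with quantile normalization), where 6.09% of all genes were called lower and 65.5% were below 0. With TPM 10 were called lower, where 11.1% of all genes were, with median-of-ratios scaling 4 (3.36% of all genes) and with quantile normalization 4 (3.09%), beside 1 called higher. The median was -0.25, against -0.29 for the members and -0.08 for all genes. The lists were not tested against each other. *Gpx4*, which reduces lipid peroxides, fell from 189 ± 12.1 to 115 ± 8.06 FPKM (log2 fold change -0.72, limma, adjusted p = 0.00335). *Glrx5* fell by 0.58 (adjusted p = 0.0142), *Prdx3* by 0.46 (0.0124), *Msra* by 0.44 (0.0102) and *Sod1* by 0.31 (0.0357) on the log2 scale. The most abundant did not pass, *Selenop* at -0.28 (adjusted p = 0.0646), *Gpx1* at -0.07 (0.777) and *Cat* at -0.07 (0.608, limma).

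The cell makeup of the tissue was checked with lists of marker genes. Hepatocyte markers were high in every library and had a median log2 fold change of 0.04 over 9 genes tested, with *Cyp2e1* lower (-0.54) and *Cps1* higher (0.63), *Apoa1*, *Ttr* and *Serpina1c* not called, and *Alb* not analysed here. Unadjusted, 2883 of all 12225 genes, or 23.6%, had a p under 0.05, and so did 5 of the 9 hepatocyte markers, the other 3 being *Tat* (-0.59), *Fgb* (0.30) and *Serpina1c* (0.27). The most abundant macrophage markers, *Cd5l* (-0.38), *Clec4f* (-0.24) and *C1qa* (-0.35), were not called. Adipocyte transcripts stood out in TRIM24 C52/55A replicate 2, with *Adipoq* at 4.55, *Plin1* at 3.32 and *Lep* at 3.98 FPKM, where the other 5 libraries had at most 0.127 FPKM. Of the 8 adipocyte markers tested *Cidec* was lower (-2.36) and *Adrb3* higher (1.86), and *Car3* was not called. Without that library *Nqo1* and *Osgin1* lost their calls as given above, *Hmox1* gained one together with 5 of the 11 macrophage markers, and 18 further pathway genes fell and 1 rose in place of 19 and 1. Of 5 erythroid markers none was called by limma and 4 had an unadjusted p under 0.05 (23.6% of all genes), with *Hba-a2*, *Hbb-bs* and *Hba-a1* at -0.89, -0.82 and -0.90. *Alas2*, of heme synthesis, went the other way at 0.48 (adjusted p = 0.0718) with every knockin library above every WT library, and was the 1 erythroid marker called, as higher, with quantile normalization or without TRIM24 C52/55A replicate 2. Of 6 endothelial markers *Lyve1* was lower (-1.26), and *Clec4g*, *Cdh5* and *Kdr* were not called. None of 4 biliary markers was called by limma. Of these *Spp1* (-0.58), *Sox9* (0.54) and *Epcam* (-0.42) had an unadjusted p under 0.05, against the same 23.6% of all genes, and *Krt19* (-0.16) did not. Their part in the pathway's values was not tested beyond leaving out that library.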

How the data were processed

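The authors deposited 1 table of FPKM per liver library, listing genes above 0, and a gene missing from a library was taken as 0. The tool behind the FPKM is not given in the sources used here. The submitters' processing notes name bcl2fastq, Salmon 0.14.0, DESeq2 1.30.0 and GRCm38, without roles. GENCODE M21 held 21454 of the 21528 gene identifiers, and 21433 overlapped the annotated gene, 65.1% with the same start. FPKM keep no read total. From the smallest steps of genes with a single transcript, 1 fragment per kilobase was worth 0.0563 to 0.0615 FPKM, and fragment numbers are estimates from these steps.

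Groups and replicate numbers came from the labels. Genes averaging 0.5 FPKM or more were tested on log2(FPKM + 1) by limma 3.58.1 under R 4.3.3 (lmFit, eBayes with a mean-variance trend, two-sided, Benjamini-Hochberg adjustment over all 12225 genes, called at 0.05). The study's text names no test for these libraries. For members, mean FPKM was also compared by exact permutation over 20 regroupings. Tables and figures were made with Python 3.11.15 (numpy 2.4.6, pandas 2.3.3, matplotlib 3.10.9), and permutation tests with scipy 1.17.1. Alternatives were a pseudocount of 0.1, no filter or one at a mean of 1 FPKM, TPM (FPKM rescaled to sum to 1000000), median-of-ratios and quantile scaling, 2 variance models, the replicate block and each library left out.

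The members and all lists were chosen with earlier results of these data known. The text names every member, *Trim24*, 7 partners and regulators, from each further list the called genes (at most 10) and the 3 most abundant, from each marker list the 3 most abundant and the called, and *Adipoq*, *Plin1* and *Lep*, picked with their values known. *Slc7a11*, *Gstp2*, *Gstp3*, *Osgin2*, *Alas2*, *Epcam*, *Tat*, *Fgb*, *Ugdh* and *Aox1* were named outside this rule, after their values were seen. Promoter windows came from RefSeq.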

Additional observations from a re-analysis of the deposited data

How the results depend on the processing

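Over 15 alternatives no member changed direction. *Srxn1* was called in 15, *Gclc* in 12, *Osgin1* in 9, *Nqo1* in 8, *Hmox1* in 3 and *Keap1* in 1, and *Nfe2l2*, *Gclm* and *Abcc4* in none of those in which they were tested. The count of members called, 4, was 2 without a filter and 2 with quantile normalization, and lay between 1 and 4 when a library was left out (1 without WT replicate 1 or 3, 2 without TRIM24 C52/55A replicate 1). The count of members with groups apart, 7, was 7 with TPM, 6 with median-of-ratios scaling and 7 to 9 with a library left out. It was not computed in the other alternatives, and leaving out a library cannot lower it. The count of further pathway genes called, 20, was 7 without a filter, 11 with median-of-ratios scaling and 12 with quantile normalization, and 6 to 19 with a library left out; *Glrx*, *Me1*, *Gstp1*, *Abcc3* and *Fth1* were called in all 15. Over all genes 944 became 347 without a filter, 1555 with TPM and 294 to 1280 with a library left out (311, 475 and 300 without WT replicates 1, 2 and 3, 294 without TRIM24 C52/55A replicate 1). The causes were not tested, except that the lower count without a filter comes with more genes tested.

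Same-numbered libraries of the 2 genotypes did not deviate together over all genes (correlations -0.12, -0.10 and 0.003), which cannot exclude a shared deviation of single genes. With the replicate block the adjusted p fell to 0.00435 for *Osgin1* and 0.0128 for *Nqo1* (limma). It rose to 0.0310 for *Gclc* and 0.0228 for *Srxn1*. With the replicate block 578 genes were called, 5 of them members, with *Hmox1* added (adjusted p = 0.0375, limma), and 15 further pathway genes were called in place of 20, with *Mafk*, *Nfe2l1*, *Slc3a2*, *Txn1*, *Pgd*, *Tkt* and *Gstm1* lost and *Prdx6* and *Ugdh* gained.

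With 3 libraries per group no single exact test can pass 0.05, and low transcripts such as *Abcc4* rest on few fragments.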

Other observations

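The following pattern was noticed after the values were seen and was not tested. Of the 62 members and further pathway genes tested, 56.5% were highest in replicate 3 among the WT libraries (40.8% of all 12225 genes) and 38.7% were highest in replicate 3 among the knockin libraries (31.1%). The 15 genes highest in both made up 24.2% (12.7% of all genes), little more than these separate shares give when multiplied. They included *Nqo1* and the glutathione S-transferases *Gsta1*, *Gsta2* and *Gsta3*. *Gsta2* had 17.6, 19.0 and 29.7 FPKM in WT and 9.84, 7.93 and 14.1 FPKM in TRIM24 C52/55A libraries. The ferritin genes *Fth1* and *Ftl1* belonged to them too, and *Osgin1* was lowest in the same pair of libraries, at 49.2 and 102 FPKM. Within either genotype the library with most *Nqo1* was thus the one with least *Osgin1*. The labels do not say whether the shared number pairs these libraries.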
